A study of Homo sapiens with 24 samples.

Results

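The levels of 10 melanosome and pigment genes were followed through SW872 liposarcoma cells carrying fusion proteins of the Hippo pathway. They were GPNMB, PMEL, TYR, TYRP1, DCT, MLANA, SLC45A2, OCA2, RAB27A and MLPH, out of 60279 genes listed for each library. The genes were taken by function, as melanosome proteins that MiT/TFE factors are known to control in other tissues, and each was looked up by its Ensembl identifier. GPNMB and TYRP1 had also been picked on earlier values of these libraries: GPNMB for its higher level in the TFE3 and YAP-TFE3 cells, and TYRP1 for its lower level in the TAZ-CAMTA1 cells. For these reasons GPNMB carries no test here in a comparison with the EV, TFE3 or YAP-TFE3 libraries, and TYRP1 carries none in a comparison with the EV or TAZ-CAMTA1 libraries.

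SW872 is a human liposarcoma line, and the 24 RNA-seq libraries fell into 8 groups of 3 separately transduced, pooled and G418-selected cell populations. Cells carried the empty vector (EV), TAZ-CAMTA1, the fusion of epithelioid hemangioendothelioma, TAZ4SA, a TAZ mutant at serines that Hippo kinases phosphorylate, YAP-TFE3, the second fusion of that sarcoma, YAP5SA, the matching YAP mutant, or full-length TFE3, and these 6 groups were read as held at confluence for 48 hours. Cells with full-length CAMTA1 were collected below confluence, and sub-confluent empty vector cells (EVsub) stood beside them. The labels except CAMTA1 from confluence without saying whether TAZ-CAMTA1, which contains part of it, is meant as well, so the density of the TAZ-CAMTA1 cells is uncertain and was not tested. All inserts carried a Flag tag and were delivered by a retroviral vector, and SW872 is not a pigment cell line. In bulk RNA, fewer cells expressing a gene and less RNA per cell cannot be told apart. Total gene counts ran from 19700277 to 35287476 per library.

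The transgenes were read first. TFE3 was 2.82-fold higher in TFE3 cells and 2.37-fold higher in YAP-TFE3 cells than in EV cells, and CAMTA1 was 6.74-fold higher in TAZ-CAMTA1 cells than in EV and 5.39-fold higher in CAMTA1 cells than in EVsub. YAP1 was 1.98-fold higher in YAP5SA cells than in EV and stood at 153 CPM in YAP-TFE3 against 128 CPM in EV cells. WWTR1, the gene of TAZ, went the other way in the libraries labelled TAZ4SA, at 134 CPM (counts scaled to library size by the trimmed mean of M values, TMM) against 204 CPM in EV, so these are called the libraries labelled TAZ4SA throughout. Of 7 mesenchymal markers none was at the floor of 3 counts throughout, and their sum was 4829 to 5726 CPM in EV and 4167 to 5646 CPM in YAP-TFE3 cells. Among them VIM, COL1A1, COL3A1 and THY1 were called lower in YAP-TFE3 than in EV (VIM at 472 against 804 CPM), PDGFRB was called higher (488 against 295 CPM), and FN1 and COL1A2 were not called. Among adipocyte markers, PPARG and LPL were present while ADIPOQ and CIDEC did not pass 3 counts in any library. Of the melanocyte markers SOX10 had no more than 3 counts in all 24 libraries, while EDNRB, named here after its values were seen, was at 12.5 CPM in EV and 52.8 CPM in YAP-TFE3 cells. Of 8 macrophage and osteoclast markers PTPRC, C1QA and C1QB were at that floor throughout, and the summed level went from 28.4 to 40.4 CPM in EV to 111 to 159 CPM in YAP-TFE3 cells, where ACP5 supplied 127 CPM on average. ACP5, CTSK, EDNRB, KIT, MITF, PAX3 and SOX10 stand both among these markers and in the pathway lists, so those values are not separate. Summed epithelial markers (6 genes, none at that floor throughout) were 198 to 216 CPM in EV, 243 to 352 CPM in YAP-TFE3, 3011 to 4024 CPM in YAP5SA and 1886 to 2155 CPM in TAZ4SA-labelled libraries. Summed adipocyte markers (6 genes) were 148 to 222 CPM in EV and 302 to 369 CPM in YAP-TFE3. The part of these markers in the results was not tested.

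Melanosomes are lysosome-related organelles in which melanin is made and stored. PMEL builds the fibrils on which pigment is laid down, TYR catalyses the first step of melanin synthesis, TYRP1 and DCT act after it, SLC45A2 and OCA2 are membrane transporters that keep the organelle fit for the enzyme, MLANA is a melanosome membrane protein, and RAB27A with MLPH and myosin Va tethers the mature organelle to actin. GPNMB is a glycoprotein related to PMEL that is also made in osteoclasts and macrophages. In melanocytes MITF, a relative of TFE3, binds E-box motifs in several of these genes, of which CATGTG and CACGTG are the cores.

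The promoters that held an E-box core are shown so that their letters can be read beside the levels. RefSeq start sites on GRCh38.p14 were found for 8 of the 10 genes, with 14 windows of 250 bases, and none was used for PMEL and SLC45A2. CATGTG stood in a window of 5 of the 8 genes and CACGTG in a window of 1, while the windows of RAB27A and MLANA held neither. The 6 windows that held an E-box core are printed as the 250 bases before the start, 5′ to 3′ on the gene's strand, with CATGTG, its reverse complement or the palindrome CACGTG in capitals. They lie at chr7:23246525-23246774 (plus strand) for GPNMB, chr9:12693135-12693384 (plus) for TYRP1, chr11:89177625-89177874 (plus) for TYR, chr13:94479683-94479932 (minus) for DCT, chr15:28099316-28099565 (minus) for OCA2 and chr2:237487001-237487250 (plus) for MLPH.
GPNMB: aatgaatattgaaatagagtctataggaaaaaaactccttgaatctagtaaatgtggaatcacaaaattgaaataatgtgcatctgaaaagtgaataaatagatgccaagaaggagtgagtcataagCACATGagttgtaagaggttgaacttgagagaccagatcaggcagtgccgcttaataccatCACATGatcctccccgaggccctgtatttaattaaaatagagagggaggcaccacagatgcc
TYRP1: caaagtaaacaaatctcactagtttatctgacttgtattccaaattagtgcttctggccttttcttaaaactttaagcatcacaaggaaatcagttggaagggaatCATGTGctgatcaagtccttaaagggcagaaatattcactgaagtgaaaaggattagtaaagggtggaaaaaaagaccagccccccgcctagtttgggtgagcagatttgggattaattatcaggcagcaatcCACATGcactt
TYR: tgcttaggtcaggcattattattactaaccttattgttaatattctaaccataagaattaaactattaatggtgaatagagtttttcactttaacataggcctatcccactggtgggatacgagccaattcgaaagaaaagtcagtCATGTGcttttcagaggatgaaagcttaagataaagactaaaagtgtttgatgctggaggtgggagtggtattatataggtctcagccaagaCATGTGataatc
DCT: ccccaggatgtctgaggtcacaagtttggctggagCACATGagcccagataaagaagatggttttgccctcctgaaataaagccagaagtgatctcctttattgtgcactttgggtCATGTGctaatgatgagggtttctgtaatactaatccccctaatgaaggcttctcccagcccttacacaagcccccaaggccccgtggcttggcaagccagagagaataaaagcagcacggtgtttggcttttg
OCA2: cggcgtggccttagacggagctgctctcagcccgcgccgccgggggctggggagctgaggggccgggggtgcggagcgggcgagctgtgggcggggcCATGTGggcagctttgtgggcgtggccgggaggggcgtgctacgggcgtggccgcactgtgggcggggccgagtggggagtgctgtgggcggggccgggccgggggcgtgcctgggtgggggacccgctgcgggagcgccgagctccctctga
MLPH: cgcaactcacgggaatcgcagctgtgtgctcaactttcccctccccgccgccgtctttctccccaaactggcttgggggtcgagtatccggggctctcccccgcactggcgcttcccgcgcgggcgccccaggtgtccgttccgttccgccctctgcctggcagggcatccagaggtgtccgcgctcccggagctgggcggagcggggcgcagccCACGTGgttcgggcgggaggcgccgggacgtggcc

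Positions are counted back from the start, with -1 the base before it. GPNMB held 2 cores, at -123 and -62, and both belonged to the longer form TCATGTG read on the opposite strand. TYRP1 had 2 cores, of which the one at -144 belonged to TCATGTG, and TYR also had 2, of which the one at -104 did. DCT had 2 TCATGTG matches at the start shown and no core at its other start, and OCA2 had 1 core, at -153. MLPH instead held CACGTG, at -35 of 1 of its 2 starts. Across all 35116 windows of the same length and on both strands, CATGTG occurred in 9.42%, the longer TCATGTG, which contains it, in 2.52%, and CACGTG in 6.34%. The TEAD motif GGAATG, the site of the factors that carry YAP and TAZ to DNA, occurred in 11.9% of windows and, among these genes, in 1 of 2 DCT windows and 1 of 5 RAB27A windows. The MLANA window held none of the 4 motifs.

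GPNMB, on chromosome 7 (23235967 to 23275108, plus strand, hg38), overlapped no other annotated gene. Its level in the 3 YAP-TFE3 libraries was 933, 1004 and 1133 CPM, from 28695, 31981 and 39179 reads. In EV it was 53.2, 58.0 and 68.7 CPM, and in TFE3 cells 103, 82.7 and 162 CPM. YAP-TFE3 therefore stood far above every other group, and the TFE3 libraries stood above EV without overlap but near the sub-confluent controls.

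By group the GPNMB mean and SD (n = 3) were 1023 ± 101 CPM in YAP-TFE3 cells, 154 ± 21.0 CPM in EVsub, 132 ± 9.18 CPM in TAZ-CAMTA1, 116 ± 41.0 CPM in TFE3, 94.1 ± 14.0 CPM in CAMTA1, 67.9 ± 3.50 CPM in YAP5SA, 60.0 ± 7.90 CPM in EV and, at the bottom, 48.0 ± 4.02 CPM for TAZ4SA-labelled libraries. In that order the neighbours EVsub and TAZ-CAMTA1, TAZ-CAMTA1 and TFE3, TFE3 and CAMTA1, and YAP5SA and EV overlapped, whereas the other neighbours did not. As a description, YAP-TFE3 cells had 17.1 times the GPNMB level of EV cells, 8.83 times that of TFE3 cells and 15.1 times that of YAP5SA cells.

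Tests of GPNMB were confined to the libraries that had played no part in its choice. TAZ-CAMTA1 cells had 139, 121 and 134 CPM against 43.4, 49.4 and 51.1 CPM in the libraries labelled TAZ4SA. GPNMB was 2.74-fold higher in the fusion (log2 1.46, SE 0.17, adjusted p = 1.42e-07 in edgeR's quasi-likelihood test, where log2 is the log2 fold change and p is adjusted over all genes tested). CAMTA1 cells had 98.9, 105 and 78.4 CPM against 168, 130 and 164 CPM in EVsub. GPNMB fell by 0.71 on the log2 scale there (SE 0.16, edgeR adjusted p = 0.0199), but the call was lost without CAMTA1 replicate 1 or 3 or EVsub replicate 1 or 3, with adjusted p from 0.0644 to 0.0999.

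**Figure D1:**
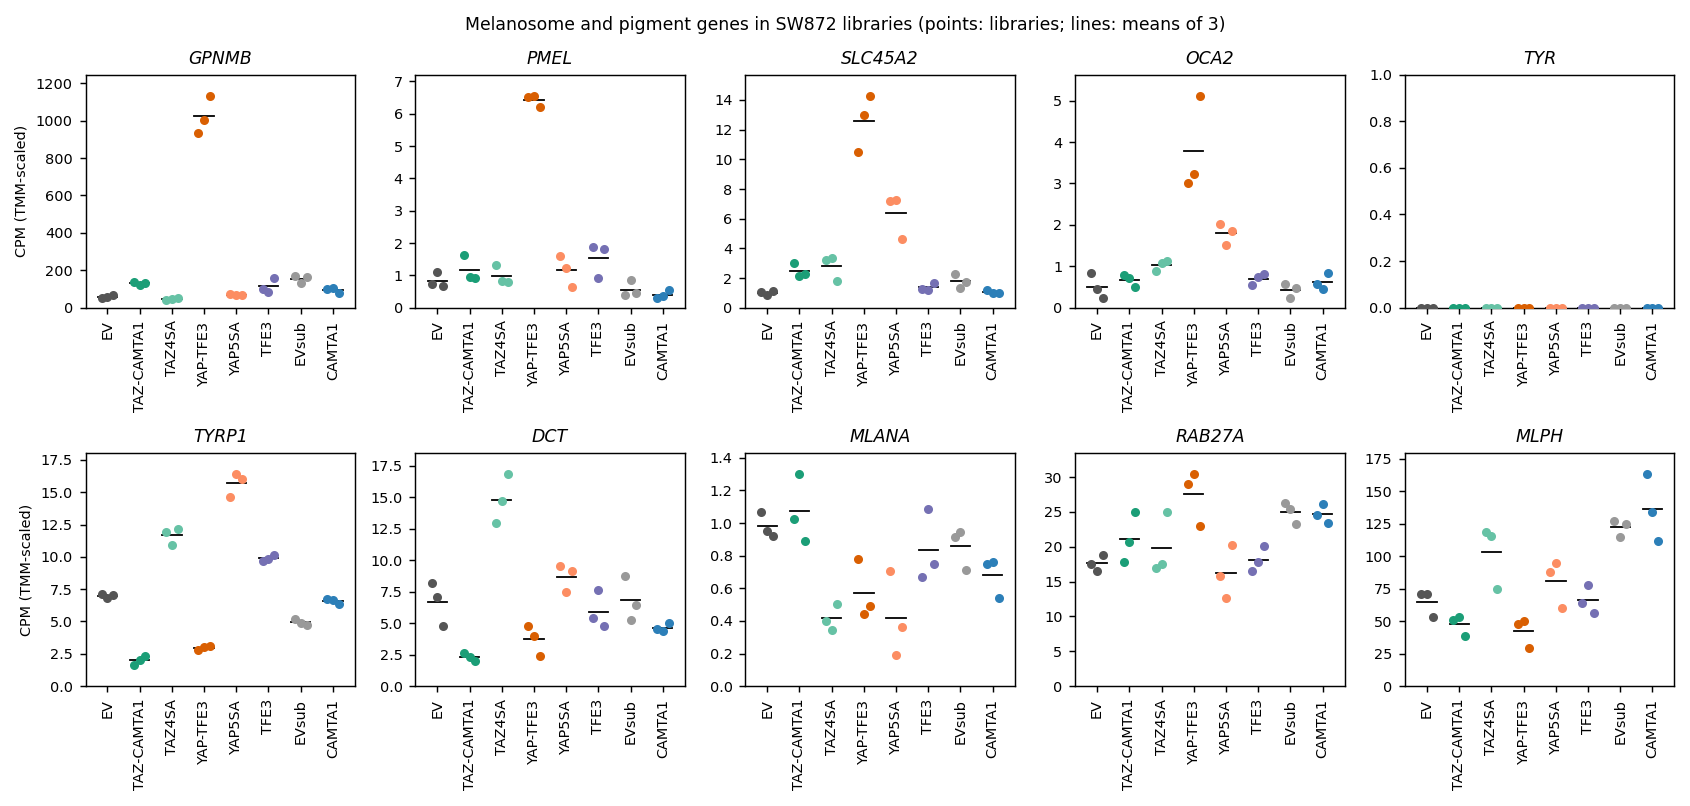
Level of each of the 10 genes in every library, as TMM-scaled CPM on a linear axis from 0, with points for libraries and lines for means of 3. GPNMB, PMEL, SLC45A2 and OCA2 were highest in YAP-TFE3 cells, TYRP1 in YAP5SA cells and DCT in the libraries labelled TAZ4SA, and TYR was at 0 counts in all 24 libraries.

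PMEL, on chromosome 12 (55954105 to 55973317, minus strand), is the closest relative of GPNMB among these genes. It was read at 6.53, 6.56 and 6.21 CPM in YAP-TFE3 cells, from 201 to 215 reads, against 0.725, 1.1 and 0.678 CPM in EV. No library of any other group went above 1.87 CPM. PMEL was 7.70-fold higher in YAP-TFE3 than in EV cells (log2 2.93, SE 0.30, adjusted p = 2.51e-08 in edgeR). It was also 4.17-fold higher than in TFE3 cells (adjusted p = 1.01e-06) and 5.54-fold higher than in YAP5SA cells (adjusted p = 1.75e-07). In TFE3 cells PMEL was at 1.87, 0.933 and 1.82 CPM, which overlapped EV (log2 0.87, SE 0.33, adjusted p = 1.0 in edgeR). PMEL shares 89 exon bases with CDK2 on the opposite strand, and CDK2 was lower in YAP-TFE3 than in EV cells, at 37.1 against 52.2 CPM (log2 fold change -0.49, edgeR adjusted p = 0.0013).

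The transporters SLC45A2 and OCA2 were higher than in EV with both YAP proteins, but not only there. SLC45A2 was also called higher in the libraries labelled TAZ4SA (mean 2.79 CPM), in TAZ-CAMTA1 (2.45 CPM) and in EVsub (1.78 CPM). OCA2 was also called higher in the libraries labelled TAZ4SA (1.03 CPM). The calls of SLC45A2 in EVsub and of OCA2 depended on single libraries, as given below. SLC45A2, on chromosome 5 (33944623 to 33984693, minus strand), was at 10.5, 13 and 14.3 CPM in YAP-TFE3 cells, at 7.22, 7.23 and 4.62 CPM in YAP5SA cells and at 1.07, 0.838 and 1.11 CPM in EV. These 3 groups did not overlap. SLC45A2 was 12.5-fold higher in YAP-TFE3 than in EV (log2 3.64, SE 0.25, adjusted p = 2.56e-11 in edgeR) and 6.31-fold higher in YAP5SA than in EV (log2 2.65, SE 0.26, adjusted p = 1.01e-08 in edgeR). The difference between YAP-TFE3 and YAP5SA was itself called, at 1.98-fold (log2 0.99, SE 0.21, adjusted p = 0.000287 in edgeR). In TFE3 cells SLC45A2 was at 1.26, 1.17 and 1.69 CPM, just above all EV libraries but not called (log2 fold change 0.45, 95% interval -0.12 to 1.01).

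OCA2, on chromosome 15 (27754875 to 28099315, minus strand), kept the same order at lower counts. YAP-TFE3 libraries had 93, 103 and 177 reads, or 3.02, 3.23 and 5.12 CPM, and YAP5SA libraries had 2.03, 1.52 and 1.85 CPM. EV libraries had 24, 12 and 5 reads, or 0.828, 0.457 and 0.242 CPM, so the EV libraries differed widely among themselves. OCA2 was 7.45-fold higher in YAP-TFE3 (log2 2.83, SE 0.31, adjusted p = 5.17e-08 in edgeR) and 3.53-fold higher in YAP5SA (log2 1.75, SE 0.33, adjusted p = 0.000155 in edgeR) than in EV. YAP-TFE3 exceeded YAP5SA by 2.11-fold (adjusted p = 0.00133) and TFE3 by 5.36-fold (adjusted p = 1.58e-07).

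TYR, the enzyme at the head of melanin synthesis (chromosome 11, 89177875 to 89295759, plus strand), had 0 reads in all 24 libraries. With 3 counts as the floor, a count of 0 allows up to 0.0851 to 0.147 CPM, depending on the library's effective size, a limit for counting error only. TYR was below the filter on low counts and was not tested.

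TYRP1, on chromosome 9 (12685439 to 12710285, plus strand), had its own pattern, with libraries of a group close together. Group means and SDs (n = 3) were 15.7 ± 0.934 CPM in YAP5SA, 11.7 ± 0.638 CPM for TAZ4SA-labelled libraries, 9.89 ± 0.241 CPM in TFE3, 6.99 ± 0.165 CPM in EV, 6.58 ± 0.224 CPM in CAMTA1, 4.94 ± 0.237 CPM in EVsub, 2.98 ± 0.160 CPM in YAP-TFE3 and 2.00 ± 0.342 CPM in TAZ-CAMTA1. No neighbours in this order overlapped. The fusion groups had the lowest means, and YAP5SA cells and the libraries labelled TAZ4SA the highest, the low TAZ-CAMTA1 level being the one TYRP1 was picked on.

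The YAP-TFE3 libraries, at 2.79, 3.04 and 3.09 CPM of TYRP1, were set against YAP5SA at 14.6, 16.4 and 16 CPM. TYRP1 was 5.27-fold lower in the fusion (log2 -2.40, SE 0.11, adjusted p = 2.25e-14 in edgeR). Against TFE3 cells, at 9.67, 9.84 and 10.1 CPM, it was 3.32-fold lower (log2 -1.73, SE 0.11, adjusted p = 7.6e-12 in edgeR). TYRP1 was 1.33-fold higher in CAMTA1 than in EVsub (log2 0.42, SE 0.11, adjusted p = 0.0486 in edgeR), and this call was lost when any 1 of the 6 libraries was left out, with adjusted p from 0.0574 to 0.205. As a description, TYRP1 was 3.50-fold lower in TAZ-CAMTA1 than in EV and 2.35-fold lower in YAP-TFE3 than in EV. TYRP1 shares 102 exon bases with LURAP1L-AS1 on the opposite strand, whose mean went from 0.0323 CPM in EV to 2.12 CPM in YAP5SA and 2.04 CPM in TAZ4SA-labelled libraries, against 0.533 CPM in YAP-TFE3, and whether reads were counted by strand is not given in the sources used here.

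DCT, the enzyme that acts between TYR and TYRP1 (chromosome 13, 94436811 to 94479682, minus strand, no overlapping gene), went with TYRP1 in the TAZ groups. It was at 2.65, 2.29 and 2.03 CPM in TAZ-CAMTA1, at 12.9, 14.7 and 16.9 CPM in the libraries labelled TAZ4SA and at 8.18, 7.04 and 4.80 CPM in EV. The 3 groups did not overlap. DCT was 2.87-fold lower in TAZ-CAMTA1 than in EV (log2 -1.54, SE 0.24, adjusted p = 0.000196 in edgeR), 2.22-fold higher in the libraries labelled TAZ4SA than in EV (adjusted p = 0.000123) and 6.38-fold lower in TAZ-CAMTA1 than in those libraries (log2 -2.68, SE 0.24, adjusted p = 1.89e-09 in edgeR). YAP-TFE3 cells had 4.74, 3.95 and 2.43 CPM of DCT, all below EV, and the fall of 0.86 on the log2 scale was called (SE 0.23, edgeR adjusted p = 0.00307). Against TFE3 cells DCT fell by 0.68 on the log2 scale (edgeR adjusted p = 0.0159), a call lost without TFE3 replicate 2 or YAP-TFE3 replicate 3, with adjusted p of 0.132 and 0.105.

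MLANA, on chromosome 9 (5890889 to 5910606, plus strand), was read at 4 to 38 counts per library. EV cells had 1.07, 0.952 and 0.921 CPM and YAP-TFE3 cells 0.780, 0.439 and 0.491 CPM. MLANA was 1.72-fold lower in YAP-TFE3 (log2 -0.79, SE 0.30, adjusted p = 0.0329 in edgeR), and the call was lost without EV replicate 1 or 2 or YAP-TFE3 replicate 2 or 3, with adjusted p from 0.0596 to 0.126. It was 2.34-fold lower in YAP5SA (adjusted p = 0.00482) and 2.36-fold lower in the libraries labelled TAZ4SA (adjusted p = 0.0036) than in EV. YAP-TFE3 and YAP5SA were not separated for MLANA (log2 fold change 0.44, 95% interval -0.26 to 1.13, edgeR adjusted p = 0.318), but leaving out YAP5SA replicate 1 gave 0.998 with adjusted p = 0.0405.

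RAB27A, a small GTPase on the organelle surface (chromosome 15, 55202966 to 55319113, minus strand), was at 29.1, 30.4 and 23.0 CPM in YAP-TFE3 cells and at 17.5, 16.5 and 18.8 CPM in EV, a 1.56-fold rise (log2 0.64, SE 0.16, adjusted p = 0.00157 in edgeR). It was also 1.69-fold higher than in YAP5SA (adjusted p = 0.000332) and 1.52-fold higher than in TFE3 cells (adjusted p = 0.0027). RAB27A shares 183 exon bases with PIGBOS1 and 154 with PIGB, both of which were higher in YAP-TFE3 than in EV cells as well, at 14.3 against 7.37 CPM and 12.6 against 9.81 CPM.

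MLPH, the melanophilin that links RAB27A to myosin Va (chromosome 2, 237485428 to 237555322, plus strand), did not move with its partner. YAP-TFE3 cells had 47.7, 50.1 and 29.4 CPM and EV cells 71.0, 70.6 and 53.2 CPM, with no overlap. MLPH was 1.53-fold lower in YAP-TFE3 (log2 -0.62, SE 0.20, adjusted p = 0.015 in edgeR), and the call was lost without EV replicate 1 or 2 or YAP-TFE3 replicate 3, with adjusted p from 0.0562 to 0.0991. Below confluence MLPH was high, at 163, 134 and 112 CPM in CAMTA1 and at 127, 115 and 125 CPM in EVsub. EVsub exceeded EV by 1.88-fold (log2 0.91, SE 0.20, adjusted p = 0.0012 in edgeR), and CAMTA1 and EVsub were not separated (95% interval of the log2 fold change -0.23 to 0.55).

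Counted over the 7 genes tested in each comparison with EV, which leaves out TYR, GPNMB and TYRP1, YAP-TFE3 cells had 4 higher (SLC45A2, PMEL, OCA2, RAB27A) and 3 lower (DCT, MLANA, MLPH). Among all 19997 genes tested, 25.6% were called higher and 22.6% lower in the same comparison. YAP5SA cells had 2 higher (SLC45A2, OCA2) and 1 lower (MLANA), beside 22.7% and 21.6% of all genes. The libraries labelled TAZ4SA had 4 higher (SLC45A2, DCT, OCA2, MLPH) and 1 lower (MLANA), beside 25.1% and 24.2%. There OCA2 rose by 0.94 on the log2 scale (edgeR adjusted p = 0.0317), lost without EV replicate 2 or 3 or TAZ4SA replicate 2 or 3 (0.0717 to 0.141) or with total counts (0.0865), and MLPH by 0.66 (adjusted p = 0.0091), lost without EV replicate 3 or TAZ4SA replicate 1 (0.0548 and 0.0522) or with total counts (0.0528). The balance of higher and lower calls over all genes depended on scaling. With total counts it went from 5013 higher and 4835 lower to 3355 and 7318 in the libraries labelled TAZ4SA, from 4534 and 4325 to 3135 and 6840 in YAP5SA, and from 5126 and 4519 to 4319 and 5538 in YAP-TFE3 cells, each against EV.

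TAZ-CAMTA1 cells had 1 of the 7 higher, SLC45A2 at 2.99, 2.12 and 2.24 CPM (log2 1.28, SE 0.27, adjusted p = 0.00495 in edgeR), and 1 lower, DCT, beside 3.55% and 1.44% of all genes. EVsub, the group of known lower density, had 3 higher (MLPH, SLC45A2, RAB27A) and none lower by edgeR or DESeq2 (3 of the 7, those named, had an unadjusted p under 0.05), beside 19.8% and 17.1% (3956 and 3412 genes, or 3109 and 4286 with total counts). There SLC45A2 rose by 0.84 on the log2 scale (edgeR adjusted p = 0.023) and RAB27A by 0.51 (adjusted p = 0.0148), and without EV replicate 2 or EVsub replicate 1 these p were 0.0948 and 0.131 for SLC45A2 and 0.0593 and 0.0559 for RAB27A, which also missed the threshold with total counts (0.057). TFE3 cells had none of the 7 called by edgeR or DESeq2, with 1 (PMEL) at an unadjusted p under 0.05, beside 0.035% of all genes in either direction. For GPNMB and TYRP1, read as descriptions, the log2 differences from EV were 4.09 and -1.23 in YAP-TFE3, 0.95 and 0.50 in TFE3, 0.18 and 1.16 in YAP5SA, 1.14 and -1.80 in TAZ-CAMTA1, and -0.32 and 0.74 in the libraries labelled TAZ4SA. These comparisons share the EV libraries.

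Against the counterparts, YAP-TFE3 had 4 of 8 tested genes higher and 3 lower than YAP5SA (28.1% and 24.3% of all genes), namely PMEL, OCA2, SLC45A2 and RAB27A above and TYRP1, DCT and MLPH below. The same counts held against TFE3 (25.4% and 22.5% of all genes, or 5089 and 4503 genes, which became 4221 and 5702 with total counts), again with PMEL, OCA2, SLC45A2 and RAB27A above and TYRP1, DCT and MLPH below. MLPH fell by 0.64 on the log2 scale against TFE3 (edgeR adjusted p = 0.0121), lost without TFE3 replicate 2 or YAP-TFE3 replicate 3 (0.0735 and 0.0831). TAZ-CAMTA1 had GPNMB and MLANA higher and DCT and MLPH lower than the libraries labelled TAZ4SA, 2 and 2 of 8 tested, beside 26.9% and 26.8% of all genes (5376 and 5354 genes, or 7486 and 3695 with total counts). MLANA was 2.58-fold higher there (log2 1.35, SE 0.32, adjusted p = 0.00114 in edgeR) and MLPH 2.16-fold lower (log2 -1.11, SE 0.20, adjusted p = 7.29e-05 in edgeR). CAMTA1 against EVsub had TYRP1 higher and GPNMB lower of 9 tested, beside 1.26% and 0.57% of all genes.

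**Figure D2:**
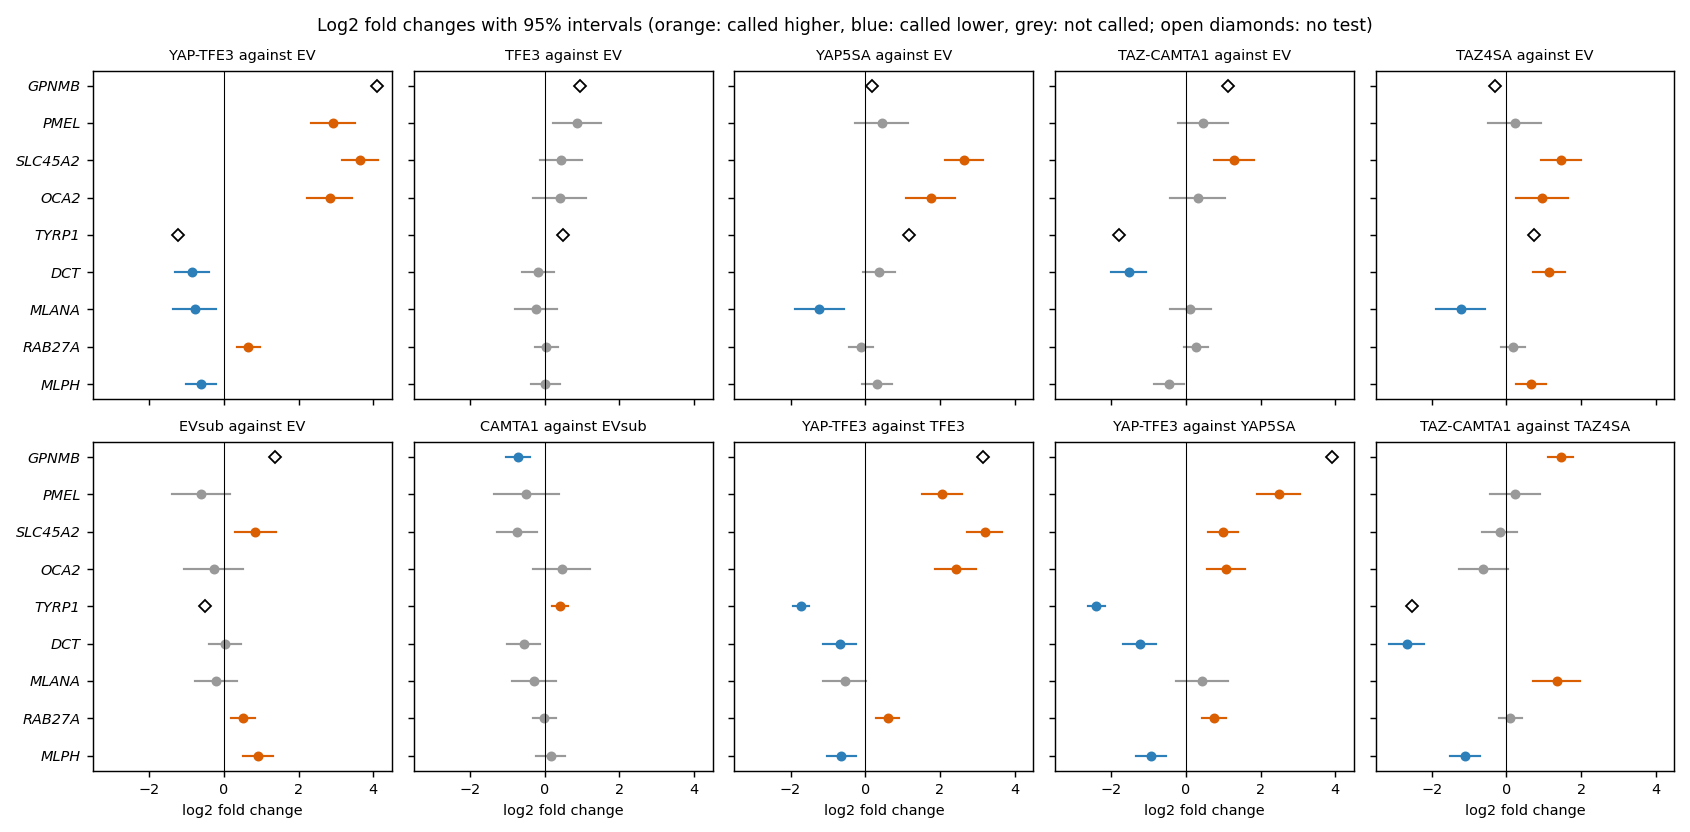
Log2 fold change of the 9 genes with counts in the 10 comparisons, as points with 95% intervals, coloured orange where called higher, blue where called lower and grey where not called, with open diamonds where no test was made. PMEL, SLC45A2 and OCA2 lay between 2.83 and 3.64 in YAP-TFE3 against EV, while DCT, MLANA and MLPH lay below 0.

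Compared per kilobase of exon, so that genes can be set beside each other, GPNMB and MLPH were the most abundant of the set in EV cells, at 10.2 and 8.74 CPM per kb. TYRP1 followed at 1.87, RAB27A at 1.55 and DCT at 0.885 CPM per kb, and MLANA, SLC45A2, PMEL and OCA2 lay between 0.156 and 0.327 CPM per kb. In YAP-TFE3 cells GPNMB reached 173 CPM per kb, while SLC45A2 reached 3.90, PMEL 1.75 and OCA2 1.16 CPM per kb. SLC45A2, PMEL and OCA2 thus remained far below GPNMB in level, and PMEL stayed below RAB27A at 2.42 CPM per kb.

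**Figure D3:**
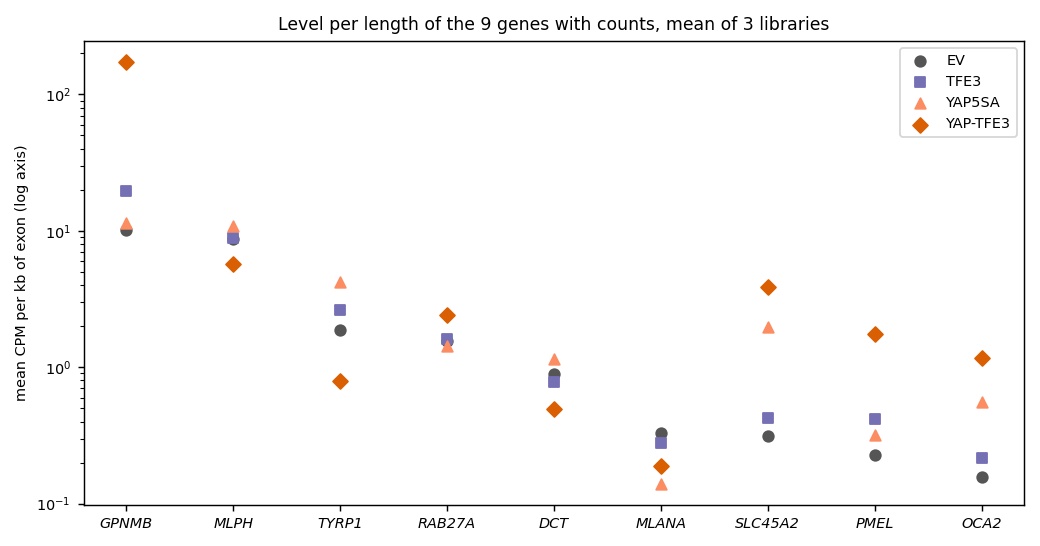
Mean level of the 9 genes with counts in EV, TFE3, YAP5SA and YAP-TFE3 cells, as TMM-scaled CPM per kb of exon on a log axis (each marker is a mean of 3 libraries; TYR, at 0, is not drawn). GPNMB in YAP-TFE3 cells stood at 173 CPM per kb, and PMEL, SLC45A2 and OCA2 rose from under 0.4 in EV to between 1.16 and 3.90 CPM per kb.

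The genes most like GPNMB and TYRP1 were sought among 12292 other genes averaging 100 counts or more, by Pearson's r of log2 CPM over the 24 libraries. For GPNMB these were PHYH (r = 0.964), CLCN5 (0.963) and ASAH1 (0.956), which encode a peroxisomal hydroxylase, an endosomal chloride transporter and the lysosomal acid ceramidase. For TYRP1 they were DHRS2 (0.852), LINC01128 (0.843) and TMEM177 (0.827). The 24 points share groups and depth. The 3 YAP-TFE3 libraries lie at the far end for GPNMB, and also for PMEL, SLC45A2 and OCA2 in the values of r within the set. Within the set and as a description, the highest r was that of SLC45A2 and OCA2 (0.88), followed by TYRP1 and DCT (0.80), PMEL and SLC45A2 (0.74), PMEL and OCA2 (0.72) and GPNMB and PMEL (0.71), and the lowest were those of PMEL and MLPH (-0.70) and GPNMB and TYRP1 (-0.63).

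Beyond the 10 genes, 66 others of the pathway were listed, of which 59 passed the filter on low counts. In YAP-TFE3 against EV 35 of the 59 were called higher and 5 lower, or 59.3% and 8.47% beside 25.6% and 22.6% of all genes, with a median log2 fold change of 0.34 beside -0.01 over all genes tested. With total counts 30 were higher and 9 lower. Against YAP5SA 28 were higher and 8 lower, or 47.5% and 13.6% beside 28.1% and 24.3% of all genes (median 0.34 beside 0.05). Against TFE3 the counts were also 28 and 8, beside 25.4% and 22.5% of all genes (median 0.29 beside -0.02). ATP6V0D2 and BCL2A1 passed the filter on low counts only through the YAP-TFE3 libraries, with means of 0.476 and 3.48 counts in the other libraries, so they had to differ. Without them 33 of 57 were higher and 5 lower than in EV. Against YAP5SA 26 of the 57 were then higher and 8 lower (median 0.30), and against TFE3 also 26 and 8 (median 0.29). The counts with and without ATP6V0D2 and BCL2A1 still include TFE3, whose reads include those of the construct. Its calls are therefore not separate from the transgene.

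The cargo list held BLOC, HPS and AP-3 genes, whose proteins deliver enzymes to the melanosome, with RAB32, RAB38, ANKRD27, KIF13A and LYST. Of its 23 genes 13 were higher and 2 lower in YAP-TFE3 than in EV cells, with a median log2 fold change of 0.23. These and the list counts that follow stand beside the same 25.6% and 22.6% of all genes. Above that median lay RAB32, a small GTPase of cargo delivery named after its values were seen, which went from 20.1 to 98.0 CPM (log2 2.29, SE 0.12, adjusted p = 2.11e-13 in edgeR) and was also at 89.9 CPM in YAP5SA cells. LYST, a regulator of lysosome-related organelle size likewise named after its values were seen, went from 21.6 to 51.7 CPM (log2 1.26, SE 0.20, adjusted p = 1.34e-05 in edgeR). Of 10 transport genes around RAB27 5 were higher and 1 lower. SYTL2, a RAB27 effector of the synaptotagmin-like family, rose by 3.42 on the log2 scale (SE 0.17, edgeR adjusted p = 1.36e-13), from 16.6 to 178 CPM. EXPH5, another RAB27 effector, rose by 2.81 (SE 0.23, edgeR adjusted p = 6.75e-10), from 0.914 to 6.47 CPM, and was also at 5.83 CPM in YAP5SA cells. RAB27B, the close relative of RAB27A, fell by 1.52 (SE 0.22, adjusted p = 4.27e-06), from 26.6 to 9.31 CPM.

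Of 7 genes of melanosome membrane and fibril processing 5 were higher in YAP-TFE3 than in EV and none was lower by edgeR. SLC7A11, the cystine transporter that feeds pheomelanin synthesis, rose by 3.22 on the log2 scale (SE 0.46, edgeR adjusted p = 3.42e-06), from 12.5 to 116 CPM. Of 3 tested MiT/TFE factors TFE3 was higher, its reads including those of the construct, MITF was higher at 10.9 against 6.89 CPM (log2 fold change 0.66, adjusted p = 0.000185) and TFEB was lower (log2 -0.97, SE 0.16, adjusted p = 1.65e-05 in edgeR). MITF was as high in YAP5SA cells, at 11.3 CPM, and TFEC, the relative of restricted expression, was not tested. Of 6 tested pigment lineage regulators 3 were higher and 1 lower, the melanocortin receptor MC1R (log2 -0.75, SE 0.15, adjusted p = 0.000247 in edgeR). MC1R shares 547 exon bases with TCF25 and 1192 with another protein-coding gene, both on its own strand, so its counts are uncertain here and below. Of the other regulators EDNRB and KITLG, named after their values were seen, rose to 52.8 and 11.5 CPM, and SOX10 was not tested.

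Tissue-restricted MiT/TFE targets of osteoclasts and melanocytes had 7 genes tested, among them ATP6V0D2 and BCL2A1, which passed the filter only through the YAP-TFE3 libraries. Of the other 5, ACP5, OSCAR, CLCN7 and OSTM1 were higher in YAP-TFE3 than in EV and none was lower by edgeR, with a median log2 fold change of 1.43. CTSK, OSTM1, CLCN7, ATP6V0D2 and BCL2A1 are named after their values were seen. ATP6V0D2 had 0 reads in EV and 30 to 81 in YAP-TFE3, where its level was at least 16.3-fold higher than the floor of 3 counts per library. BCL2A1 had 1 to 4 reads in EV and 79 to 117 in YAP-TFE3. With both included, a choice that the filter partly fixes, 6 of 7 were higher and the median was 2.23, that of ACP5, whether or not ATP6V0D2 was set at its bound. ACP5, the tartrate-resistant acid phosphatase of osteoclasts, was 127 CPM in YAP-TFE3 against 15.3 CPM in YAP5SA (log2 3.05, SE 0.19, adjusted p = 2.34e-12 in edgeR). Against TFE3 cells 4 of the 5 were higher and 1 lower, beside 25.4% and 22.5% of all genes. The lower gene was CTSK, at 3.69 CPM in YAP-TFE3 against 5.51 CPM in TFE3 cells. In TFE3 cells none of the 7 was called against EV by edgeR, and the median was 0.46 over the 7 and 0.33 over the 5, beside 0.00 over all genes. Of 3 shedding and binding partners of GPNMB, ADAM10 and CD44 were not called and SDC4 was higher.

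**Figure D4:**
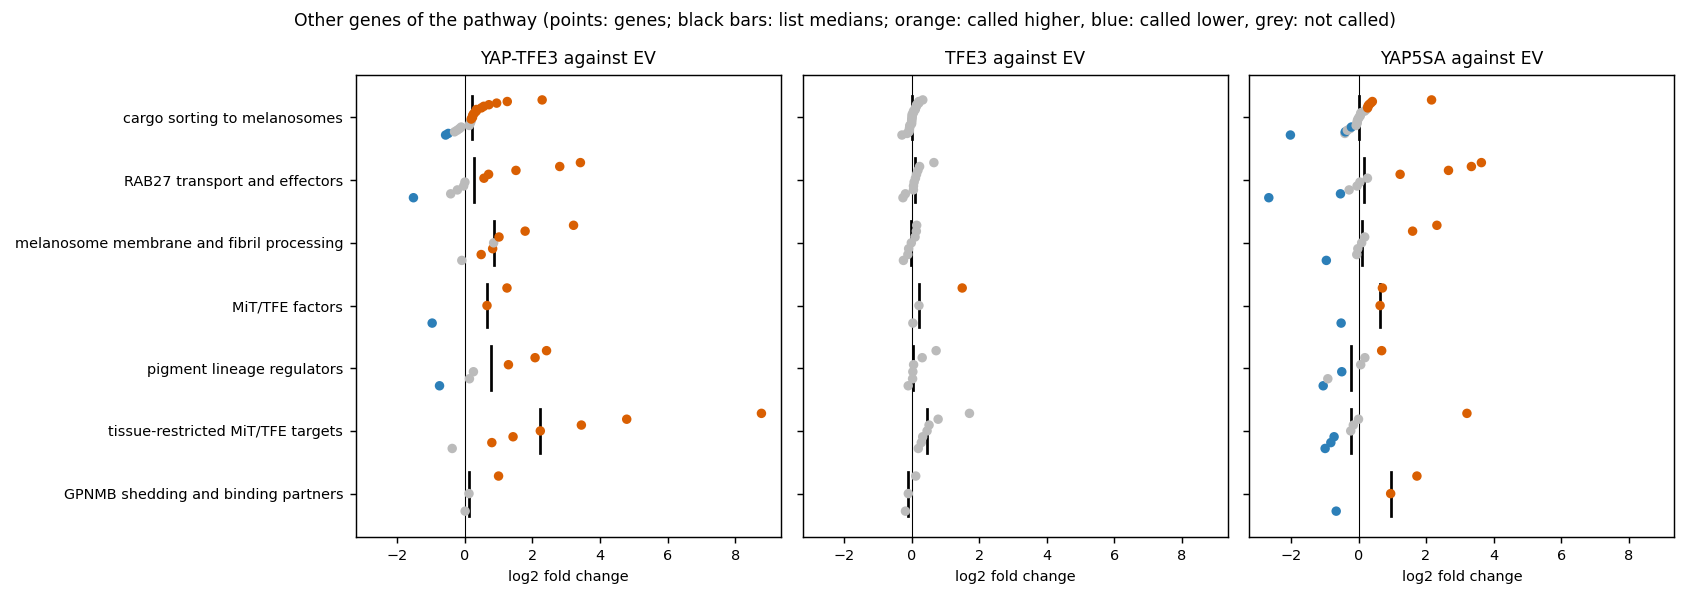
Log2 fold change against EV of the tested pathway genes in YAP-TFE3, TFE3 and YAP5SA cells, by list, with a point per gene (orange called higher, blue called lower, grey not called) and black bars at list medians. The 7 tissue-restricted MiT/TFE targets, ATP6V0D2 and BCL2A1 included, had a median of 2.23 in YAP-TFE3 cells, 0.46 in TFE3 cells and -0.23 in YAP5SA cells, and the point farthest right is ATP6V0D2, at 0 reads in EV.

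In YAP5SA cells 18 of the 59 pathway genes were called higher and 13 lower, or 30.5% and 22.0% beside 22.7% and 21.6% of all genes. In the libraries labelled TAZ4SA 21 were higher and 14 lower, or 35.6% and 23.7% beside 25.1% and 24.2%. The lower shares were near those of all genes, and with total counts the balance turned, to 15 higher and 21 lower in YAP5SA and to 16 and 24 in the libraries labelled TAZ4SA. Both groups shared the EV libraries as controls. UNC13D and SYTL5, RAB27 effectors, rose by 3.64 and 3.34 on the log2 scale in YAP5SA cells (edgeR adjusted p = 1.03e-11 and 1.82e-07), and SLC7A11 by 2.32 (adjusted p = 0.000197). RAB27B fell by 2.65, the BLOC-2 subunit HPS3 by 2.01 and the copper transporter ATP7A by 0.95. In the libraries labelled TAZ4SA OSCAR rose by 4.69, EXPH5 by 3.27 and SLC7A11 by 1.88, and RAB27B fell by 2.76, HPS3 by 1.92 and ATP7A by 1.27, each with an edgeR adjusted p of 0.00133 or less. HPS3 shares 1420 exon bases with CP on the opposite strand, ATP7A 689 with PGAM4 and SLC7A11 865 with its antisense gene, so their counts are uncertain.

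TAZ-CAMTA1 cells had 4 of the 59 higher and none lower than EV by edgeR, or 6.78% higher beside 3.55% of all genes, with 14 at an unadjusted p under 0.05 (either direction) and 9 of the pathway called when nearly all genes were kept. EDNRB, the endothelin receptor of melanocyte precursors, rose by 1.69 on the log2 scale (SE 0.14, edgeR adjusted p = 1.05e-08), from 12.5 to 40.2 CPM, while BACE2, the protease that cuts PMEL, rose by 0.48 (adjusted p = 0.0145) and SYTL4 by 0.46 (adjusted p = 0.0348). SYTL4 shares 4006 exon bases with SRPX2 on the opposite strand. The count fell to 2 without EV replicate 1, EV replicate 2, TAZ-CAMTA1 replicate 1 or TAZ-CAMTA1 replicate 3. Against the libraries labelled TAZ4SA 16 were higher and 25 lower, or 27.1% and 42.4% beside 26.9% and 26.8% of all genes, and with total counts 21 were higher and 14 lower. These calls were led by RAB27B (2.52), EDNRB (1.91) and HPS3 (1.80) upward and by OSCAR (-4.69), EXPH5 (-2.90) and SDC4 (-1.52) downward on the log2 scale.

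TFE3 cells had 1 of the 59 called, beside 0.035% of all genes in either direction, with 6 at an unadjusted p under 0.05. The 1 called was TFE3 itself, whose reads include those of the construct. CAMTA1 against EVsub had 1 called, or 1.69% lower beside 0.57% of all genes, ACP5, which fell by 0.75 on the log2 scale (SE 0.17, edgeR adjusted p = 0.0206), with 11 at an unadjusted p under 0.05. That count was 0 without any 1 of the libraries other than CAMTA1 replicate 3, and 2 without that library. In EVsub against EV 17 were higher and 9 lower, or 28.8% and 15.3% beside 19.8% and 17.1% of all genes (13 and 11 with total counts), with CD44 (1.38), SYTL2 (1.08) and SDC4 (0.96) up and TFEB (-0.92), MC1R (-0.78) and AP3S2 (-0.64) down on the log2 scale, of which AP3S2 shares 1953 exon bases with the readthrough gene ARPIN-AP3S2. The 3 partners of GPNMB were higher in EVsub than in EV. CD44 and SDC4 were also higher, and ADAM10 lower, in the libraries labelled TAZ4SA, where CD44 was at 795 against 385 CPM and SDC4 at 188 against 52.3 CPM. In YAP5SA cells 2 of the 3 partners were likewise higher and 1 lower than in EV, with CD44 at 745 CPM. GPNMB was at 48.0 CPM in the libraries labelled TAZ4SA, 67.9 CPM in YAP5SA and 60.0 CPM in EV. Between YAP-TFE3 and YAP5SA the leading pathway genes were KITLG (3.46), ACP5 (3.05) and SYTL2 (2.19) upward and SYTL5 (-3.56), UNC13D (-2.12) and CD44 (-0.94) downward, and between YAP-TFE3 and TFE3 they were SLC7A11 (3.46), SYTL2 (3.27) and EXPH5 (2.57) upward and RAB27B (-1.59), TFEB (-1.0) and MC1R (-0.78) downward.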

How the data were processed

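RNA was read with a stranded mRNA kit from 24 libraries of SW872 cells. The authors deposited whole-number counts of reads per Ensembl gene, 1 file per library, made with bcl2fastq and bcbio-nextgen from reads aligned to hg38 with an Ensembl annotation. The methods name Salmon and tximport for the gene-level counts of the study's tests. Whether the deposited whole numbers came from that step, and the use of strand, are not given in the sources used here. Counts were not rescaled before deposit. No column of per-sample values was left out.

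The 19997 genes averaging 5 counts or more across libraries were fitted with edgeR 4.0.16 (R 4.3.3), 1 mean per group, TMM scaling, the quasi-likelihood test and Benjamini-Hochberg adjustment over all genes tested, called under 0.05. SE is the size of the log2 fold change over the root of F, and 95% intervals use it. The method was tested on simulated data. CPM are counts scaled to effective library size, and CPM per kb divides it by GENCODE release 44 exon length. The floor is 3 counts per library. The smallest chi-square per degree of freedom between libraries of a group was 3.33, so none was a duplicate.

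The genes, lists and alternatives were chosen with earlier results of these data known. Named were all 10 genes, up to 3 called pathway genes per direction and comparison by size among those averaging 100 counts or more, and the 3 genes most correlated with GPNMB and with TYRP1. Alternatives were total counts, DESeq2 1.42.0, other filters, a replicate block, fits of the compared groups only and leaving out each library. Promoters and start sites came from RefSeq. The summed level of the melanocyte markers is not reported here.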

Additional observations from a re-analysis of the deposited data

How the results depend on the processing

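Among recomputed values of the 10 genes, 1020 kept their direction and side of the threshold or moved by less than the spread, 41 lost a call, 7 gained one, 11 moved and 1 reversed. GPNMB in YAP5SA against EV, a description, went from 0.18 to -0.0036 with scaling to total counts, which moved the median of all genes by -0.18 there and by -0.20 in the libraries labelled TAZ4SA. Counts of calls over the 10 genes are not given against EV, since they would include GPNMB and TYRP1, which carry no test there. For the 10 genes CAMTA1 against EVsub gave 1 call with total counts, with nearly all genes kept and with only those groups fitted. It gave 0 to 1 with 1 library left out. For pathway genes, TAZ-CAMTA1 against EV gave 9 with nearly all genes kept, 7 with only those groups fitted and 2 to 3 with 1 library left out. TFE3 against EV gave 2 by DESeq2, 2 with nearly all genes kept and 1 to 2 with 1 library left out, and CAMTA1 against EVsub gave 4 with nearly all genes kept, 2 with only those groups fitted and 0 to 2 with 1 library left out. Fewer samples enter the last kind of fit, and for the other changes the cause was not tested.

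Replicate numbers 1 to 3 recur in every group. The deviations of same-numbered libraries from their group means had correlations from -0.30 to 0.22, with both signs among the pairs. MLPH, named for this after its values were seen, was lowest in replicate 3 in every group but EVsub. Whether same-numbered libraries were handled together is not given in the sources used here and was not tested. With the replicate block CAMTA1 against EVsub gave 1 call among the 10 genes and 2 among pathway genes. All other pathway counts stayed within 1.5 times, and GPNMB in YAP-TFE3 against EV, a description, was 4.09. MLPH was called in TAZ-CAMTA1 and YAP5SA against EV only with the block or other filters and fits (adjusted p = 0.0296 and 0.0457 with the block, edgeR). Depth limits OCA2, MLANA and PMEL in EV, where they had 5 to 31 reads per library.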
